A study of Mus musculus with 516 samples.

Results

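Th, Slc17a8, Fam19a4, P2ry1 and Zfp521 are 5 genes that together mark the low-threshold C-fibre mechanoreceptors of mouse dorsal root ganglia. They were taken by name, and all 5 were in the deposited count table of 11251 genes. The table holds 516 single cells of 2 inbred mouse strains, CAST/Ei and C57BL/6, captured on a microfluidic chip and sequenced from polyA RNA. Cultured cells came from dissociated ganglia kept on bare plastic at high density for 48 h, with ara-C, which blocks cell division, given at 24 h, before trypsin lifted them. The labels call this an in vitro axotomy. Naive cells were captured straight after dissociation, so all 4 groups went through dissection, dissociation, a mesh and a Percoll step. Of 273 CAST/Ei cells 99 were cultured and the rest naive, and of 243 C57BL/6 cells 45.7% were cultured and 54.3% naive. The labels name no animal, age, culture or capture run, so each group was treated as 1 sample. No test between groups could be made, and every interval below covers counting error only.

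Low-threshold C-fibre mechanoreceptors are unmyelinated touch neurons that end around hair follicles and respond to gentle stroking of hairy skin. They are set apart from other small sensory neurons by making tyrosine hydroxylase while lacking the peptides of nociceptors. Th encodes that enzyme, the rate-limiting step of catecholamine synthesis. Slc17a8 encodes VGLUT3, which loads glutamate into synaptic vesicles, and Fam19a4 encodes TAFA4, a small secreted protein of the chemokine-like TAFA family. P2ry1 encodes a G protein-coupled receptor for ADP, and Zfp521 encodes a zinc finger transcription factor that binds EBF factors. The question of the comparison was how these genes stood in cells after 48 h in culture, and whether single cultured cells kept them together.

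The genes lie on 5 chromosomes of GRCm38: Th at chr7:142892779-142899995, Slc17a8 at chr10:89574020-89621249, Fam19a4 at chr6:96831206-97060411 and P2ry1 at chr3:61002785-61008982, with Zfp521 on another. P2ry1 is on the plus strand and the others are on the minus strand. An antisense gene, Gm37035, overlaps P2ry1, and AC104328.1 overlaps Zfp521 on the same strand. Neither is in the count table, and reads from them cannot be told apart from reads of the members here. Because the 5 genes were high in the same naive cells, the 250 bases before the annotated start of 4 of them are shown, from RefSeq on GRCm38.p6, on the strand of the gene and 5′ to 3′, as chr7:142899996-142900245 for Th, chr10:89621250-89621499 for Slc17a8, chr6:97060412-97060661 for Fam19a4 and chr3:61002535-61002784 for P2ry1. Capitals mark letters that match 1 of 5 searched motifs.
Th: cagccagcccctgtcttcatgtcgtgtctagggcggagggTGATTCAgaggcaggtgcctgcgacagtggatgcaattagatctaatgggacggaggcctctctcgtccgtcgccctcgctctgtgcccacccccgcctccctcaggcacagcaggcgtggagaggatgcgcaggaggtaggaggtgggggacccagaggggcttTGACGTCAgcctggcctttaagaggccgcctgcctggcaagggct
Slc17a8: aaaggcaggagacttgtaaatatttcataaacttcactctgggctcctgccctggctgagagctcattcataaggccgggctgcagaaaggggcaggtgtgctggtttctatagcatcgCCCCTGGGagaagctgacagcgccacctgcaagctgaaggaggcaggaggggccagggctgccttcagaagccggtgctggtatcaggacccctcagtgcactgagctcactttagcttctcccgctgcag
Fam19a4: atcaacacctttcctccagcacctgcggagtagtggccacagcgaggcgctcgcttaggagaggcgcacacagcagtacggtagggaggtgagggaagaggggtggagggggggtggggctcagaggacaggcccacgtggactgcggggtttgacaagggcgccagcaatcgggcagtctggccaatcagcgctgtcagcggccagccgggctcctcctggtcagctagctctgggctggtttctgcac
P2ry1: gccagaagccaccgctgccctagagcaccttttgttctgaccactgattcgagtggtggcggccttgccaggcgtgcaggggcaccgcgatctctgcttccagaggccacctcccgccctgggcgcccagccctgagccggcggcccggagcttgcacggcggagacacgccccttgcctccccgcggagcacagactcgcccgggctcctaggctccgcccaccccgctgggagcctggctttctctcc
The motifs were searched on both strands, and no 2 matches overlapped. The cyclic AMP element TGACGTCA lay 45 to 38 bases before the start of Th, and 1.55% of 32817 windows of that length in the RefSeq table hold it. An AP-1 match, TGANTCA, lay 210 to 204 bases before the start of Th and is in 6.75% of windows. The EBF motif CCCNNGGG lay in the window of Slc17a8 and is in 11.8% of windows. The RUNX motif TGTGGT and the TATA motif TATAAA, found in 14.04% and 12.4% of windows, were in none of the 4, and the windows of Fam19a4 and P2ry1 held no match. None of the 5 motifs was in all 4 windows, and a match describes letters only.

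Cells held 13932 to 2978345 reads, with a median of 839147. Leiden clusters, made without the 5 genes, were named from marker lists. Clusters 4 (fibroblast-like) and 6 (glia-like) held 23 cultured CAST/Ei cells (23.2%) and 74 cultured C57BL/6 cells (66.7%). The other cultured cells, 76 CAST/Ei and 37 C57BL/6, were neuron-like (clusters 2 and 5, with 1 cell each in clusters 3 and 11). Of the naive cells, 89.7% in CAST/Ei and 64.4% in C57BL/6 (85 cells) were neuron-like. A further 31 naive C57BL/6 cells, cluster 9, lost the name under the rule for names, because Rgs5, a pericyte marker, is among their leading 10 genes and no gene of the neuron list is. Their mean over the neuron list, 8.30 on the log2(CPM + 1) scale, lay within the 7.42 to 8.34 of the named naive neuron clusters. Results over neuron-like cells are therefore given without cluster 9 and, as a choice made after seeing the data, with it, and whole groups come first.

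In the whole groups, 4 of the 5 genes were at least 2-fold lower in cultured than in naive cells in each strain. Of all 11251 genes, 18.7% were that much lower in CAST/Ei and 20.5% in C57BL/6. The exceptions differed, since Fam19a4 was not past 2-fold in CAST/Ei and Slc17a8 was not in C57BL/6. The median log2 ratio of the 5 genes was -3.37 in CAST/Ei and -2.47 in C57BL/6, against medians of 0.14 and 0.12 over all genes. Levels are reads summed over the cells of a group and given as counts per 1000000 reads of the group (CPM) with exact 95% Poisson intervals, and ratios are log2 ratios of CPM + 1. In such a sum, fewer cells of a type and less RNA per cell cannot be told apart.

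**Figure D1:**
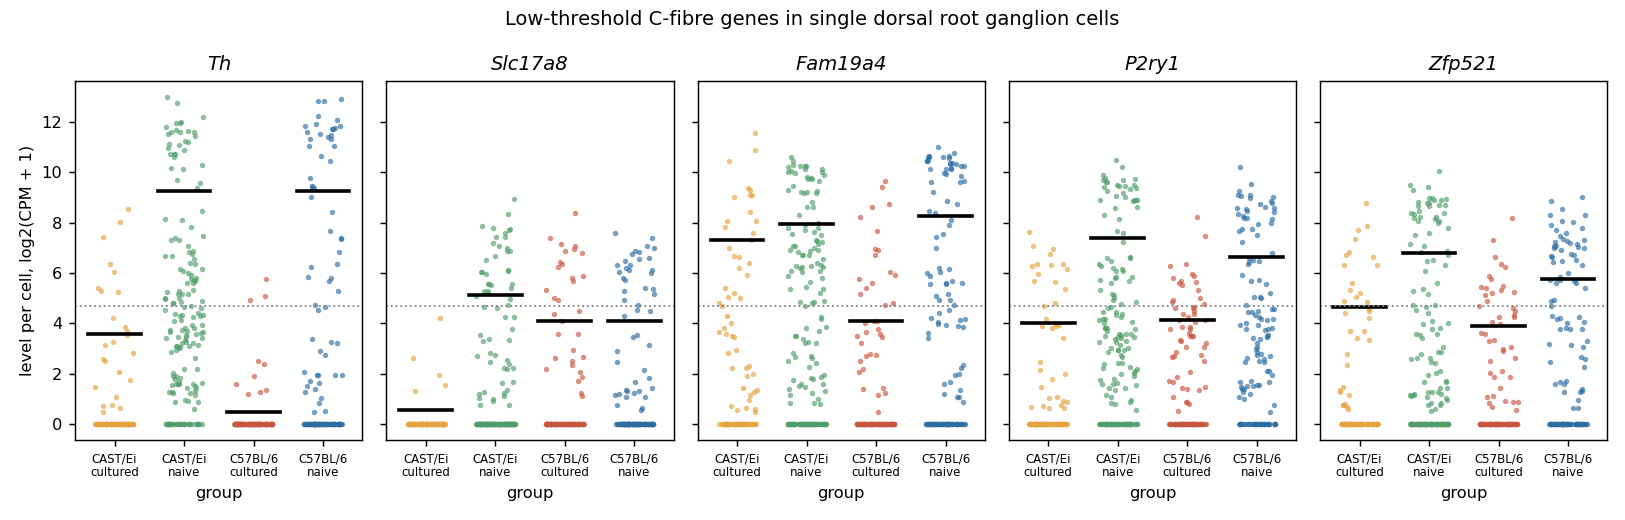
Level of each gene in every cell, as log2(CPM + 1), in cultured and naive CAST/Ei cells and in cultured and naive C57BL/6 cells. Points are cells, black bars are the summed level of the group, and the dotted line marks 25 CPM. Th reaches 8036 CPM in a naive CAST/Ei cell, while no cultured cell exceeds 367 CPM.

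Th had the lowest log2 ratio of CPM + 1 of the 5 genes in both strains, although on CPM itself the naive level was 56.4-fold the cultured one for Th in CAST/Ei and 73.1-fold for Slc17a8. It stood at 10.9 CPM (10.3 to 11.5) in cultured and 615 CPM (612 to 619) in naive CAST/Ei cells, a log2 ratio of -5.69, and 5 of the 11251 genes had a lower ratio. In C57BL/6 it stood at 0.412 CPM (0.294 to 0.561) in cultured and 617 CPM (612 to 621) in naive cells, a log2 ratio of -8.77, and 1 gene had a lower ratio. The naive sums were carried by few cells. In CAST/Ei the median cell had 0 CPM in culture and 13.1 CPM when naive, with highest cells at 367 and 8036 CPM. In C57BL/6 the median was 0 CPM in both groups, with highest cells at 53.6 CPM in culture and 7726 CPM when naive. Above 1000 CPM there were 0 cultured and 27 naive CAST/Ei cells, and 0 cultured and 21 naive C57BL/6 cells. The cultured sums rested on single cells as well, since without the cell with the most Th reads they were 6.82 CPM in CAST/Ei and 0.228 CPM in C57BL/6, with log2 ratios of -6.30 and -8.97.

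In the whole groups Slc17a8 had the lowest naive level of the 5 genes, and it was the gene for which the strains differed most in culture. In cultured neuron-like cells the log2 ratio of CPM + 1 of CAST/Ei over C57BL/6 was larger for Th, at 2.65 against -2.09 for Slc17a8. On CPM itself the order was the reverse. Slc17a8 was 42.3-fold higher in C57BL/6 and Th 9.66-fold higher in CAST/Ei, where Slc17a8 had only 0.0856 CPM (7 reads). Over the whole groups, Slc17a8 in CAST/Ei had 0.466 CPM (0.349 to 0.609) in cultured and 34.1 CPM (33.2 to 34.9) in naive cells, a log2 ratio of -4.58. In C57BL/6 it had 16.04 CPM (15.3 to 16.9) in cultured and 16.2 CPM (15.4 to 16.9) in naive cells, a log2 ratio of -0.01. The equal C57BL/6 sums came from different classes of cell. Of 1559 cultured C57BL/6 reads, 95.2% lay in the fibroblast-like and glia-like cells, and of 1802 naive reads 63 lay in neuron-like cells, or 1795 with cluster 9 added. The cultured C57BL/6 cell with the highest level, at 334 CPM, was a fibroblast-like cell with 0 reads of Th, Fam19a4 and P2ry1. Among cultured CAST/Ei cells, 81.1% of the 53 reads came from 1 glia-like cell, and the neuron-like cells together held 7 reads.

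In cultured CAST/Ei cells Fam19a4 was the member closest to its naive level. It had 159.3 CPM (157.03 to 161.7) in cultured and 247 CPM (244 to 249) in naive CAST/Ei cells, a log2 ratio of -0.63. In C57BL/6 it had 16.3 CPM (15.5 to 17.1) in cultured and 309.6 CPM (306 to 313) in naive cells, a log2 ratio of -4.17. The cultured CAST/Ei sum was uneven, with 78.2% of its reads in 5 cells and 29.9% in 1. Without that cell it was 114.6 CPM and the log2 ratio -1.10, past 2-fold. Cells above 100 CPM numbered 16 cultured (16.2%) and 52 naive (29.9%) CAST/Ei cells, and 9 cultured (8.11%) and 37 naive (28.03%) C57BL/6 cells. The highest single cell of all 4 groups was a cultured CAST/Ei cell at 3047 CPM, and the cultured and naive ranges overlapped.

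P2ry1 and Zfp521 were lower in culture in both strains. P2ry1 had 15.3 CPM (14.6 to 16.04) in cultured and 167.98 CPM (166.06 to 169.9) in naive CAST/Ei cells, a log2 ratio of -3.37. In C57BL/6 P2ry1 had 16.8 CPM (15.98 to 17.6) in cultured and 97.4 CPM (95.6 to 99.3) in naive cells, a log2 ratio of -2.47. Its cultured levels were alike in the strains, although the reads lay in different cells: 29.6% of the cultured CAST/Ei reads and 92.8% of the cultured C57BL/6 reads were outside the neuron-like cells. Without the glia-like cell that held 38.5% of the reads, the cultured C57BL/6 level was 10.6 CPM. Zfp521 had 24.4 CPM (23.5 to 25.3) in cultured and 108.6 CPM (107.05 to 110.1) in naive CAST/Ei cells, a log2 ratio of -2.11. In C57BL/6 Zfp521 had 13.7 CPM (12.97 to 14.5) in cultured and 53.8 CPM (52.4 to 55.2) in naive cells, a log2 ratio of -1.90. Most Zfp521 reads of cultured cells, 55.1% in CAST/Ei and 89.9% in C57BL/6, again came from cells that were not neuron-like. The cultured CAST/Ei level was 15.6 CPM without the glia-like cell that held 37.4% of the reads.

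Per kilobase of exon, which allows genes to be set against each other, the naive order was the same in both strains: Th, Fam19a4, P2ry1, Zfp521 and Slc17a8. In naive CAST/Ei cells the levels per kilobase were 260.3, 43.3, 39.1, 15.4 and 7.22 CPM in that order, and in naive C57BL/6 cells they were 260.8, 54.4, 22.7, 7.65 and 3.43 CPM. The order differed in culture. Fam19a4 came first in cultured CAST/Ei cells, at 27.99 CPM per kilobase against 4.62 for Th. In cultured C57BL/6 cells Th came last at 0.174 CPM per kilobase, and the other 4 genes lay between 1.95 and 3.91.

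Over neuron-like cells alone, 4 of 5 members were at least 2-fold lower in cultured than in naive CAST/Ei cells, where 20.4% of all genes were. Th had 14.9 CPM in cultured and 665 CPM in naive CAST/Ei neuron-like cells, Slc17a8 0.0856 and 36.4 CPM, P2ry1 14.97 and 179.6 CPM, and Zfp521 15.2 and 112.2 CPM. Fam19a4 had 220.0 and 266 CPM, a log2 ratio of -0.27. In C57BL/6 the count turned on cluster 9. Without it, 1 member, Th, was at least 2-fold lower in cultured neuron-like cells (1.55 against 7.91 CPM), 2 members, Slc17a8 (3.62 against 0.935 CPM) and Fam19a4 (57.4 against 19.5 CPM), were at least 2-fold higher, where 22.6% of all genes were that much lower and 23.2% that much higher. With cluster 9 counted as neuron-like, all 5 were at least 2-fold lower, where 23.6% of all genes were. The naive levels were then 724 CPM for Th, 18.97 for Slc17a8, 361 for Fam19a4, 110.2 for P2ry1 and 58.6 for Zfp521, and the log2 ratios ran from -8.15 for Th to -2.11 for Slc17a8. Markers of other cells moved with culture inside this class: the glial list summed to 4536 CPM in cultured and 2696 CPM in naive CAST/Ei neuron-like cells, and to 4637 and 2591 CPM in C57BL/6, with 11 of 14 genes at least 2-fold higher in each strain, where 24.0% of all genes were in CAST/Ei and 23.2% in C57BL/6, and none at 0. The fibroblast list summed to 1973 and 479 CPM in CAST/Ei and to 1253 and 440 CPM in C57BL/6, and the neuron list to 11628 and 19979 CPM and to 11873 and 19792 CPM, cultured given first. The part of these cells in the members' levels was not tested.

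The 5 genes were found together in single naive cells and seldom in cultured cells. To compare cells at 1 depth, each was thinned to 200000 reads, and a gene was called detected at 5 or more of them, which is 25 CPM in the thinned cell. The thinning was 1 random draw, so genes somewhat below 25 CPM in the full counts could be called. Slc17a8 at 21.3 CPM and Zfp521 at 18.02 CPM were called in this way in cultured C57BL/6 cell 60. Cells below that depth were left out, which kept 90 cultured CAST/Ei and 97 cultured C57BL/6 cells and, of the naive cells, 93.7% in CAST/Ei and 93.9% in C57BL/6. At least 3 of the 5 genes were detected in 6 of 90 cultured CAST/Ei cells (6.67%, exact 95% interval 2.49% to 13.9%) and in 42 naive CAST/Ei cells (25.8%, 19.2% to 33.2%). In C57BL/6 they were detected in 2 of 97 cultured cells (2.06%, 0.251% to 7.25%) and in 31 naive cells (25%, 17.7% to 33.6%). All 5 genes were detected in 27 naive CAST/Ei and 24 naive C57BL/6 cells and in no cultured cell; a count of 0 allows a share of up to 3.33% of 90 cultured CAST/Ei cells and up to 3.09% of 97 cultured C57BL/6 cells. Cells with none of the 5 were 45 cultured (50%) and 39 naive (23.9%) CAST/Ei cells, and 49 cultured (50.5%) and 51 naive (41.1%) C57BL/6 cells. In cells of the fibroblast-like and glia-like clusters, 0 of 22 CAST/Ei and 0 of 67 C57BL/6 cultured cells reached 3 genes. Without thinning and at 1 read, the shares with 3 or more genes were 24.2% in cultured and 59.8% in naive CAST/Ei cells, and 16.2% in cultured and 49.2% in naive C57BL/6 cells. Within neuron-like cells the thinned shares were 8.82% of 68 cultured and 26.4% of the naive CAST/Ei cells, and 6.67% of 30 cultured and 1.27% of 79 naive C57BL/6 cells, or 27.5% of the naive C57BL/6 cells with cluster 9.

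**Figure D2:**
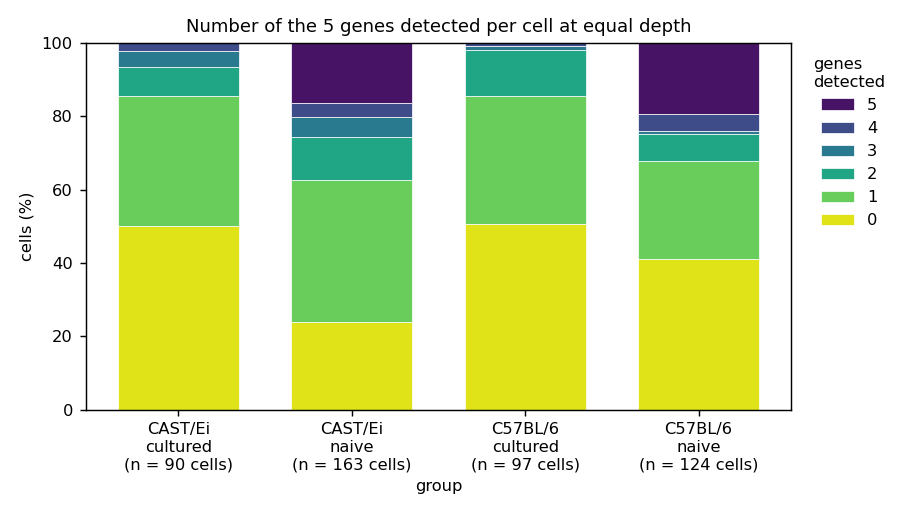
Share of cells by the number of the 5 genes detected after thinning to 200000 reads, in cultured and naive CAST/Ei cells and in cultured and naive C57BL/6 cells; each bar is 1 group and the colours run from 0 to 5 genes. The segment for all 5 genes is present in the naive groups, with 27 and 24 cells, and absent from both cultured groups.

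Naive cells with Slc17a8 were nearly always cells with the other members. Of 35 naive CAST/Ei cells with Slc17a8, 31 also had Th, 30 Fam19a4, 30 P2ry1 and 31 Zfp521. Of 27 naive C57BL/6 cells with Slc17a8, 24 had Th and 26 had each of the other genes. The reverse held less tightly, since Fam19a4 was also found alone. Of 71 naive CAST/Ei cells with Fam19a4, 41 had Th and 21 had none of the other 4 genes. Of 50 in C57BL/6, 29 had Th and 16 had none of the others. Spearman's rho over all cells of a group, for the 10 gene pairs, ran from -0.13 to 0.37 (median 0.18) in cultured and from 0.45 to 0.61 (median 0.54) in naive CAST/Ei cells. In C57BL/6 it ran from -0.09 to 0.21 (median 0.07) in cultured and from 0.53 to 0.68 (median 0.61) in naive cells. The cells of a group share depth differences and many zeros, and these values describe the cells without a test.

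**Figure D3:**
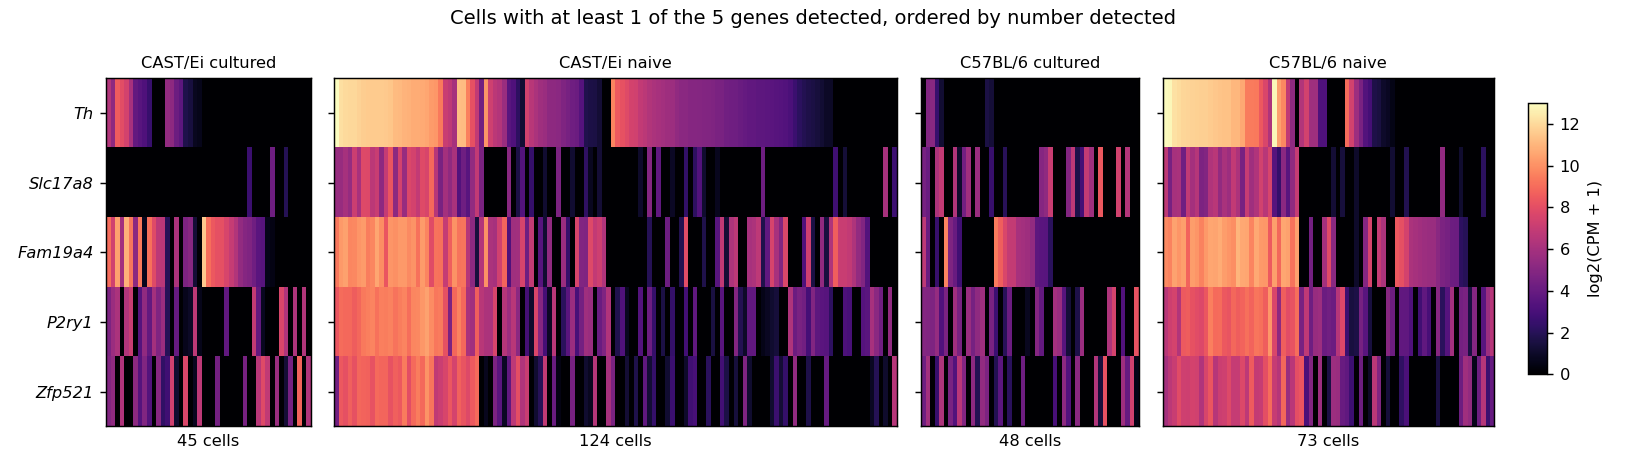
Levels of the 5 genes as log2(CPM + 1), in each cell with at least 1 of them detected, which were 50% of cultured and 76.1% of naive CAST/Ei cells and 49.5% of cultured and 58.9% of naive C57BL/6 cells. Columns are cells ordered by the number of genes detected, and the bright block with all 5 rows is seen in the naive panels.

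The 8 cultured cells with at least 3 members were all neuron-like. All 6 CAST/Ei cells had 0 reads of Slc17a8. Cell 43 had 367 CPM of Th, 1381 of Fam19a4, 71.2 of P2ry1 and 0 of Zfp521, and cell 69 had 171.04, 1907, 81.7 and 0 CPM of the same genes. Cell 24 had 65.1 CPM of Th, 636 of Fam19a4, 132.9 of P2ry1 and 0 of Zfp521, and so held the same 3 members as those 2 cells. It differed from cells 43 and 69 in Mrgprd, a gene of itch and pain neurons, at 52.2 CPM against 1.19 and 1.06 CPM. The touch channel gene Piezo2 had 5.92 CPM in cell 24 against 473.8 and 55.96 CPM. Cell 50 and 1 other cell held 4 members, with 37.6 and 80.7 CPM of Th, 159.5 and 517 of Fam19a4, 49.7 and 24.5 of P2ry1 and 39.1 and 28.6 of Zfp521. Cell 65 had 259 CPM of Th, 59.8 of Fam19a4, 0 of P2ry1 and 79.7 of Zfp521. In C57BL/6, cell 2 had 29.3 CPM of Th, 16.3 of Slc17a8, 16.3 of Fam19a4, 27.7 of P2ry1 and 58.6 of Zfp521, and cell 60 had 0, 21.3, 104.9, 29.5 and 18.02 CPM of the same genes. Th in these 8 cells, 0 to 367 CPM, lay below the median of the naive cells with 4 or 5 members, 2149 CPM in CAST/Ei and 2577 CPM in C57BL/6. That naive set has a stricter cut, at 4 members rather than 3. Its lowest cells had 19.9 CPM of Th in CAST/Ei and 0 CPM in C57BL/6, so the ranges overlapped. Of 8 cultured CAST/Ei cells with Th, 6 had Fam19a4, 5 P2ry1, 3 Zfp521 and 0 Slc17a8. Of 25 cultured CAST/Ei cells with Fam19a4, 6 had Th, and of 12 in C57BL/6, 0 had Th.

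Among cells high for Fam19a4, the cultured ones held less of the other members than the naive ones. Among 16 cultured CAST/Ei cells above 100 CPM of Fam19a4, all neuron-like, the median was 428 CPM for Fam19a4 and 0 CPM for Th. Of these 16 cells, 7 had a Th read and 5 reached 25 CPM of Th, 10 had a P2ry1 read and 6 reached 25 CPM of P2ry1, 6 had a Zfp521 read and 0 had a Slc17a8 read. Among 52 naive CAST/Ei cells above 100 CPM, the median Th level was 1136 CPM, 47 had a read of Th, 43 of P2ry1, 43 of Zfp521 and 37 of Slc17a8. In C57BL/6, 0 of 9 cultured cells above 100 CPM, of which 8 were neuron-like, had a Th read, against 32 of 37 naive cells with a median of 2094 CPM. P2ry1 had reads in 6 of those 9 cultured cells and 35 of those 37 naive cells. Cdh9, a cadherin of low-threshold C-fibre neurons, had reads in 1 of 16 cultured and 36 of 52 naive CAST/Ei cells of this kind, and in 0 of 9 cultured and 34 of 37 naive C57BL/6 cells. Ret, the GDNF family receptor that these neurons share with several other types, had reads in every one of these cells in all 4 groups, with medians of 414 CPM in cultured and 444 CPM in naive CAST/Ei cells and 221 CPM in cultured and 542 CPM in naive C57BL/6 cells. Piezo2, the channel of touch neurons, had medians of 65.8 CPM in cultured and 880.2 CPM in naive CAST/Ei cells, and 59.2 and 863 CPM in C57BL/6. Mrgprd reached 25 CPM in 4 of 16 cultured and 20 of 52 naive CAST/Ei cells of this kind. In C57BL/6 it did so in 0 of 9 cultured and 7 of 37 naive cells. Cells high for Fam19a4 can thus not be taken as 1 type of neuron.

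**Figure D4:**
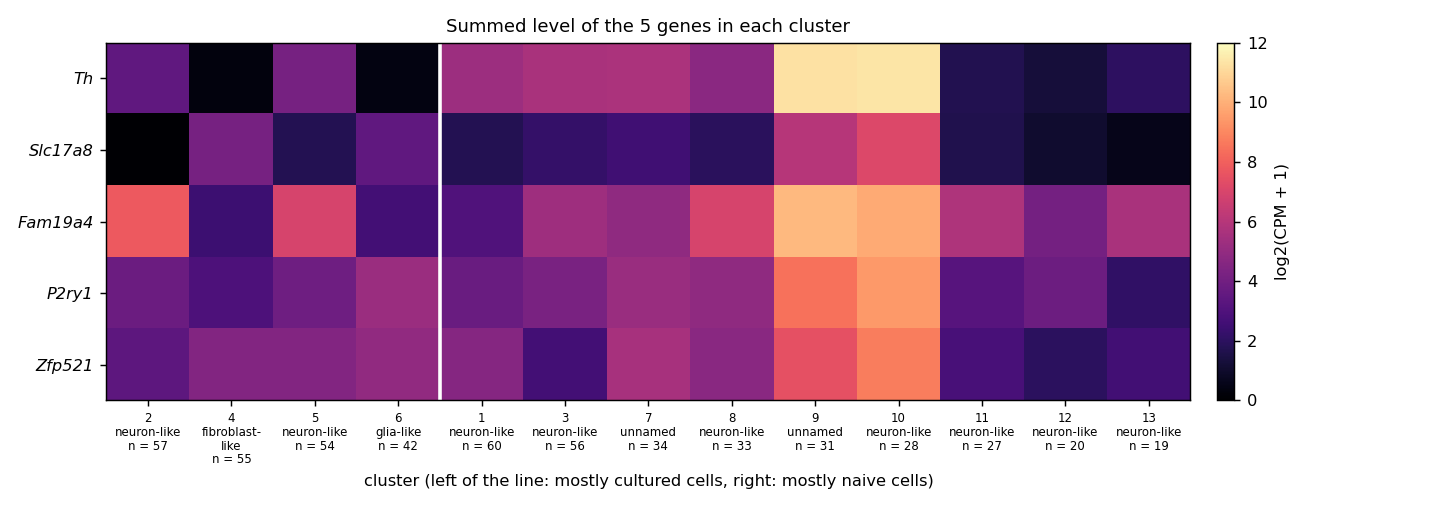
Summed level of each gene in the 13 clusters as log2(CPM + 1), with the cluster's name and number of cells under it; clusters of mostly cultured cells stand left of the line. Clusters 9 and 10 are high for all 5 genes, and clusters 2 and 5 of cultured cells are higher for Fam19a4 than for the other 4 genes.

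The naive cells that carried the set fell mostly in 1 cluster per strain, cluster 10 with 28 CAST/Ei cells and cluster 9 with 31 C57BL/6 cells. All 5 genes were detected in 25 cells of cluster 10, in 24 cells of cluster 9 and in 1 CAST/Ei cell each of clusters 3 and 8. Clusters 9 and 10 were picked because most of their thinned cells had all 5 genes detected. The high levels of the 5 genes in them follow from that choice and are given as a description. Th had 2665 CPM in cluster 10 against 41.99 CPM in the other naive CAST/Ei neuron-like cells, and 2499 CPM in cluster 9 against 7.91 CPM in the naive C57BL/6 neuron-like cells. Slc17a8 had 142.1 against 3.47 CPM in CAST/Ei and 63.6 against 0.935 CPM in C57BL/6, Fam19a4 944 against 55.1 and 1208 against 19.5, P2ry1 699 against 17.9 and 356 against 11.1, and Zfp521 422 against 15.9 and 179.2 against 9.93. These clusters were made without the 5 genes, and genes of the same neurons were high there: Cdh9 had 446 against 2.27 CPM in CAST/Ei and 161.4 against 2.91 CPM in C57BL/6, and Gfra2, the neurturin receptor, 428 against 79.4 and 461 against 59.5 CPM. Nociceptor genes were low there, with Calca, the CGRP gene, at 352 against 5383 CPM in CAST/Ei and 285 against 6176 CPM in C57BL/6, and Trpv1, the capsaicin receptor, at 4.82 against 76.9 and 1.07 against 81.1 CPM. The label of the gene set thus matched the markers of clusters 9 and 10. Cdh9, Gfra2, Calca and Trpv1 were among the genes the clustering could use, so their values describe the clusters and test nothing. Of the other naive neuron clusters, the Mrgprd clusters of itch and pain neurons, 8 in CAST/Ei and 11 in C57BL/6, held Fam19a4 in 79.3% and 60% of cells, at 125.2 and 53.5 CPM. No cluster of cultured cells was high for all 5 genes, and the highest Th level among them was 16.6 CPM in cluster 5.

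Between the strains, 2 of 5 members were at least 2-fold apart in naive cells, both higher in CAST/Ei, where 14.8% of all genes were that far apart either way. Slc17a8, with a log2 ratio of 1.03, and Zfp521, at 2.02-fold, were both near the 2-fold line, and the log2 ratio was 0.78 for P2ry1, -0.0029 for Th and -0.33 for Fam19a4. Over neuron-like cells all 5 were higher in naive CAST/Ei cells without cluster 9, with log2 ratios of 3.37 to 6.22 (14.7% of all genes apart), and 0 of 5 were 2-fold apart with it, with log2 ratios of -0.44 to 0.93 (13.4%). No strain direction is drawn from the comparison without cluster 9. In cultured cells 3 of 5 were at least 2-fold apart in the whole groups, where 27.5% of all genes were: Th, at a log2 ratio of 3.08, and Fam19a4, at 3.21, were higher in CAST/Ei, and Slc17a8, at -3.54, was lower. The cultured groups differed in makeup, with 76.8% of CAST/Ei and 33.3% of C57BL/6 cells neuron-like. In cultured neuron-like cells all 5 were at least 2-fold apart (35.7% of all genes), with log2 ratios of 2.65 for Th, 1.92 for Fam19a4, 1.26 for P2ry1, 1.11 for Zfp521 and -2.09 for Slc17a8. The submitters' processing notes name mm10, a C57BL/6 genome, for both strains, and the effect of CAST/Ei sequence variants on the members' counts was not tested.

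For each member, the 3 genes outside the set most like it were found by Pearson r on log2(CPM + 1). It was taken over naive neuron-like cells as the lower value of the strains. The members were left out of the ranking, although some were nearer to each other. With cluster 9, Zfp521 and Slc17a8 had a lower r of 0.78, and Th and Zfp521 0.76. Fam19a4 had at most 0.65 with another member, below its 3 genes. With cluster 9 included, 8 genes filled the 15 places. Cckar, the cholecystokinin A receptor, and Dgkk, a diacylglycerol kinase, were among the 3 for Th, Slc17a8 and Zfp521, with lower r of 0.77 to 0.81. Cdh9 came first for Slc17a8 (0.82), P2ry1 (0.77) and Fam19a4 (0.73). Slc51a completed the list for Th (0.74), Adamts3 and Rasgrp1 that for Fam19a4 (0.69 and 0.68), Adamts3 and Fat3 that for P2ry1 (0.73 each) and Atp2b2 that for Zfp521 (0.75). In the whole groups Cdh9 stood at 0.642 CPM in cultured and 98.3 CPM in naive CAST/Ei cells, and at 0.0103 and 41.2 CPM in C57BL/6. Rasgrp1 stood at 3.52 and 221 CPM in CAST/Ei and at 3.58 and 389 CPM in C57BL/6, so it was low in culture in CAST/Ei, where Fam19a4 was less than 2-fold lower. Without cluster 9 the naive C57BL/6 cells hardly held the set, and the leading genes were Gpr37, Scn3a and Rbms3 for Th, Slc51a, Pou4f2 and Samd5 for Slc17a8, Gfra2, Txn1 and Rasgrp1 for Fam19a4, Fat3, Scn1a and Atp2b2 for P2ry1, and Gabrb2, Mcam and Gabra3 for Zfp521, with lower r of 0.28 to 0.58. The cells of a strain share their depth differences, and r describes them.

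Most genes of a list of other markers of these neurons were lower in culture as well. Of 7 further low-threshold C-fibre genes, 5 were at least 2-fold lower in cultured than in naive neuron-like cells in CAST/Ei, and 4 in C57BL/6 or 5 with cluster 9, and none was higher. Of all genes, 20.4% were that much lower in CAST/Ei and 22.6% in C57BL/6, or 23.6% with cluster 9. The genes short of 2-fold were Ret and Runx1, a transcription factor of small sensory neurons, with log2 ratios of -0.25 and 0.59 in CAST/Ei and -0.26 and -0.35 in C57BL/6, and, in C57BL/6 without cluster 9, Cacna1h, a T-type calcium channel subunit, at -0.64. In the whole groups Gfra2 had 12.3 CPM in cultured and 151.3 CPM in naive CAST/Ei cells and 18.6 and 158.5 CPM in C57BL/6, and Rarres1, a retinoid-responsive gene, had 12.7 and 92.7 CPM and 2.85 and 54.4 CPM. Cdh9 had 0 reads in the 37 cultured C57BL/6 neuron-like cells. The lower levels were not particular to low-threshold C-fibre genes, since 17 of 20 marker genes of other neuron subtypes were at least 2-fold lower in cultured neuron-like cells of each strain (16 in C57BL/6 with cluster 9), with median log2 ratios of -3.17 in CAST/Ei and -3.91 in C57BL/6. Among them Mrgprd, Mrgpra3, Mrgprb5 and Tac1 had log2 ratios of -4.74, -5.25, -6.98 and -5.05 in CAST/Ei and of -6.02, -7.69, -4.76 and -5.90 in C57BL/6 whole groups.

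Genes that work with each member were mixed. The counts below are of genes at least 2-fold apart in neuron-like cells, where 20.4% of all genes were lower and 24.0% higher in CAST/Ei and 22.6% lower and 23.2% higher in C57BL/6. Counts close to these shares, such as 1 of 5 lower around Slc17a8 in CAST/Ei and 2 of 9 lower around Th in C57BL/6, are no result about their list. The glial and fibroblast lists were also higher in cultured than in naive neuron-like cells. The part of RNA from other cells in the ratios below was not tested. Around Th, of 9 catecholamine genes 4 lay below and 1 above the 2-fold lines in cultured CAST/Ei neuron-like cells, and 2 were lower and 1 higher in C57BL/6. Spr, which completes the cofactor of the Th enzyme, had log2 ratios of -1.83 and -1.60, and Nr4a2, a transcription factor of dopamine neurons, 1.77 and 1.05, CAST/Ei given first. Around Slc17a8, 1 of 5 genes of glutamate handling was lower and 1 higher in CAST/Ei, and 0 lower and 1 higher in C57BL/6. Around Fam19a4, 2 of 7 relatives and partners were lower and 4 higher in CAST/Ei, and 2 lower and 1 higher in C57BL/6. Fam19a5, a relative, had log2 ratios of 1.19 and 3.22. Around P2ry1, 7 of 16 genes of purinergic signalling were lower and 4 higher in CAST/Ei, and 4 lower and 5 higher in C57BL/6. Acpp, an ectonucleotidase of nonpeptidergic neurons, had log2 ratios of -4.49 and -3.98, and Entpd2, an ectonucleotidase of glia, 4.42 and 4.52. P2rx7, an ATP-gated channel, had 3.88 and 3.23, and Plcb3, a phospholipase of receptor signalling, -2.72 and -3.41. Around Zfp521, 0 of 5 relatives and EBF factors were lower and 1, Ebf2, higher in CAST/Ei (log2 ratio 3.72), and 4 were lower and 1, Ebf2, higher in C57BL/6 (1.15).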

How the data were processed

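Single cells from mouse dorsal root ganglia were captured on a Fluidigm C1 chip, which also made and amplified their cDNA, and Nextera libraries were sequenced on an Illumina instrument, per the labels' protocols. The authors deposited raw read counts, as whole numbers per gene and cell, for 11251 genes and 516 cells. Per the submitters' processing notes, Bowtie2, SAMtools and mm10 were used. Neither the counting program nor its annotation is given in the sources used here. Bowtie2 joins no reads across introns, and the reads carry no molecular identifiers. The least detected gene had reads in 60 cells. There were 99 cultured and 174 naive CAST/Ei cells, and 111 cultured and 132 naive C57BL/6 cells. Of these 76, 156, 37 and 85 were neuron-like in that order, and 116 naive C57BL/6 cells with cluster 9.

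The members and gene lists were chosen with earlier results of these data known. Columns were matched to samples by title. Cells were clustered without a filter and without the 5 members, on 2000 variable genes, 20 principal components and 15 neighbours (Leiden, resolution 1), and clusters were named from the marker list with the highest mean. A name was dropped where markers of another class outnumbered its own among the 10 leading genes. No doublet caller was run. Sums were scaled to CPM, compared as log2 ratios with a pseudocount of 1 CPM and called past 2-fold, with exact 95% Poisson intervals for sums and Clopper-Pearson intervals for shares. Cells were thinned to 200000 reads, and shallower cells were left out of shares, which kept 90 cultured and 163 naive CAST/Ei cells and 97 cultured and 124 naive C57BL/6 cells. Limits for a count of 0 were taken as 3 counts. Genes named beside the members were the 3 most like each member and, from each list, up to 4 genes at least 2-fold apart the same way in both strains. 1 gene that this rule names is not reported here. Ratios and thinning were tested on simulated data. Python 3.11.15, pandas 2.3.3, scipy 1.17.1 and leidenalg 0.10.2 were used.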

Additional observations from a re-analysis of the deposited data

Results flagged for a closer look

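Slc17a8 went opposite ways in the strains when neuron-like cells were compared as classed. Its log2 ratio of cultured over naive cells was -5.11 in CAST/Ei and 1.26 in C57BL/6, and its log2 ratio of CAST/Ei over C57BL/6 was -2.09 in cultured and 4.27 in naive cells. The difference was not tested. The C57BL/6 sums were 75 reads in cultured and 63 reads in naive cells. With cluster 9 counted as neuron-like the C57BL/6 ratio of cultured over naive cells was -2.11, so the sign was then the same in both strains.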

How the results depend on the processing

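No paired analysis was possible because the title numbers name single cells and no result comes from a test. Each group is 1 sample, whole reads stand for amplified molecules, and the intervals cover counting error only. In the whole groups, the number of members at least 2-fold lower in culture was 4 or 5 of 5 in CAST/Ei and 4 in C57BL/6 under every alternative run for them (size factors, pseudocounts of 10 and 0.1 CPM, a minimum of 10 CPM, the mean of the cells' CPM, and leaving out each gene's leading cell), all chosen after seeing the data. Size factors moved the median log2 ratio of all genes by -0.18 to 0.01. The 2 members apart between naive strains became 1 with size factors and without the leading cells, and 0 with a pseudocount of 10 CPM and with the mean of the cells' CPM.

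Over neuron-like cells, the CAST/Ei count of lower members stayed within 1.5 times its value of 4 under the alternatives run. The C57BL/6 count of 1 became 0 when the pseudocount or the minimum level was 10 CPM, 2 with the mean of the cells' CPM, 3 without the 89 neuron-like cells with the most glial expression, 4 over all cells, and 5 with cells classed one by one and with cluster 9. The count of 5 members apart between naive strains was 2 over all cells and 0 with cells classed one by one and with cluster 9. The count of 5 between cultured strains was 2 with a pseudocount of 10 CPM and 3 over all cells, with cells classed one by one and with the mean of the cells' CPM. Cluster 9 is outside the class in the values as classed and inside it in all 3 settings that gave 4 or 5.

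Some log2 ratios over neuron-like cells changed sign. Over all cells they were -0.012 for Slc17a8 and -4.17 for Fam19a4 between cultured and naive C57BL/6 cells, -0.0029 for Th and -0.33 for Fam19a4 between naive strains, and -0.13 for P2ry1 between cultured strains. With cells classed one by one, Slc17a8 was -2.77 and Fam19a4 -2.55 between cultured and naive C57BL/6 cells, and Th -0.13 and Fam19a4 -0.46 between naive strains. With cluster 9 the same 4 values were -2.11, -2.63, -0.12 and -0.44. Without the 89 glial-rich cells, Slc17a8 was -0.60 between cultured and naive C57BL/6 cells. The cause was not tested.

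Shares of cells with 3 or more members depended on the threshold. At 1 thinned read they were 18.9% in cultured and 43.6% in naive CAST/Ei cells and 9.28% in cultured and 34.7% in naive C57BL/6 cells; unthinned at 1 read they were 24.2% and 59.8%, and 16.2% and 49.2%. Cultured C57BL/6 cells had 0 with 10 thinned reads and 0 at 100000 reads. Over neuron-like cells, 1 thinned read gave 20.6% in cultured and 43.2% in naive CAST/Ei cells and 15.2% in naive C57BL/6 cells, and 1 unthinned read 26.3%, 59.6% and 30.6% in the same order. Cultured C57BL/6 neuron-like cells had 0 of 30 with 10 thinned reads and 0 of 32 at 100000 reads. Naive C57BL/6 cells had 25% over all cells, 28.04% with cells classed one by one and 27.5% with cluster 9. Cultured shares lay below naive ones in every one of these settings in CAST/Ei.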

Other observations

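Reads of Th were spread widely among naive CAST/Ei cells. At least 1 Th read was found in 81.03% of naive CAST/Ei and 44.7% of naive C57BL/6 cells. In naive cells with 0 to 3 of the members the median Th level was 8.32 CPM in CAST/Ei and 0 CPM in C57BL/6. Detection after thinning was not confined to the neuron-like class. Th was detected in 10 of 15 naive CAST/Ei cells of the unnamed cluster 7, led by endothelial and interferon-induced genes. It was detected in 66 naive CAST/Ei neuron-like cells (44.6%), and the summed Th levels were 98.2 and 665 CPM in that order. Cluster 7 cannot be taken as non-neuronal, since its mean was 5.70 over the neuron list and 5.70 over the glial list, as log2(CPM + 1). In clusters 4 and 6 the neuron list had means of 3.67 and 4.16. In naive C57BL/6 cells 2 of 15 cells of cluster 7 had Th, at a summed level of 8.05 CPM. The 0 to 3 member cells and cluster 7 were compared after seeing the data, and the source of these reads was not tested.

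Outside the neuron-like cells of the cultures, Slc17a8 was detected in 1 of 22 CAST/Ei and 14 of 67 C57BL/6 cells, at summed levels of 1.44 and 19.4 CPM, and Zfp521 in 5 of 22 and 9 of 67 cells, at 47.8 and 15.6 CPM. Without the glia-like cell that held 67.7% of the CAST/Ei Zfp521 reads the level was 16.7 CPM, and without the glia-like cell that held 93.5% of the CAST/Ei Slc17a8 reads it was 0.102 CPM, values added after seeing the data.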
